A study of Mus musculus with 4 samples.

Results

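The Dlk1-Dio3 imprinted domain of mouse chromosome 12 was examined in embryonic stem (ES) cells, wild type and Prep1-/-. The genes were chosen by symbol: *Dlk1*, *Meg3*, *Rian*, *Mirg*, *Rtl1*, *Dio3* and mmu-mir-431. Of these 7 genes, 5 were found among the 22718 genes of the RNA-seq tables, and *Rian* and *Mirg* were found neither by symbol nor by identifier, so they have no value here. The RNA-seq data are 1 library of wild type ES cells and 1 of Prep1-/- ES cells (the line called KO2), both derived on a C57BL/6 background and grown on gelatin with leukemia inhibitory factor and serum. Each genotype is 1 library and the mutant is 1 line, so effects of the genotype, the line and the culture cannot be told apart, and no test between genotypes was possible. A Prep1 chromatin immunoprecipitation (ChIP-seq) peak list, made with an antibody to Prep1, came from wild type cells that the labels describe as C57BL/6 and the protocol as the R1 ES line. The antibody was also described as binding the related protein Prep2 weakly.

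Prep1, encoded by *Pknox1*, is a homeodomain protein that binds DNA together with Pbx proteins. Imprinted genes are expressed mainly from the chromosome inherited from 1 parent. In this domain the protein-coding genes *Dlk1*, *Rtl1* and *Dio3* are known as paternally expressed, and the noncoding transcripts *Meg3* (also *Gtl2*), *Rian* and *Mirg*, with the microRNAs and small nucleolar RNAs that lie along them, as maternally expressed. Loss of *Meg3* expression is known from some mouse pluripotent cell lines as a sign of a disturbed imprint. The tables do not separate parental alleles, so the values below are sums over both.

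In the mm9 assembly the domain ran from the *Dlk1* start at 110691033 to the *Dio3* end at 111519307 on chromosome 12, a length of 828.275 kb. The tables held 63 genes in it, of which 58 were placed by their GENCODE M1 positions and 5 (*Rtl1*, mmu-mir-299, mmu-mir-376a, mmu-mir-409 and mmu-mir-668) by name. Apart from *Dlk1*, *Meg3*, *Rtl1* and *Dio3* these were 59 small RNA genes: 44 microRNA genes, 14 SNORD113 genes and AC152063.5. The 2 libraries held 29596294 (wild type) and 25717811 (Prep1-/-) reads on genes. These totals exceed the read number that the methods of the study state, so if the counts are not independent fragments the intervals below are too narrow. Levels are given as RPKM, here the count plus 1 read scaled to a transcript length and the size of the library. The difference is given as the ratio of the Prep1-/- to the wild type RPKM. Intervals are exact (Clopper-Pearson) 95% intervals from the read counts as they stand and cover counting error only. A gene was counted as lower when the ratio was below 0.7 and its wild type RPKM above 1, and as higher when the ratio was above 1.5 and its Prep1-/- RPKM above 1.

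*Pknox1* itself had 505 reads from wild type cells against 332 from the library labelled Prep1-/-. Its RPKM was 7.85 and 5.78, a ratio of 0.736 (interval 0.638 to 0.846), so the targeted gene kept reads in the library labelled Prep1-/-, and the tables do not show from which exons. By immunoblot the study reported that Prep1 protein was lost in its null ES lines, KO2 among them. ES cell markers were present in both libraries: all 8 listed (*Pou5f1*, *Nanog*, *Sox2*, *Zfp42*, *Esrrb*, *Klf4*, *Dppa5a* and *Utf1*) had a wild type RPKM between 11.7 and 767. Of them 1, *Klf4*, passed a threshold with a ratio of 1.58. The median log2 ratio of this list was 0.31, and its lowest ratio was 0.801 for *Zfp42*. Of all genes above an RPKM of 1 in the library concerned, 13.8% passed the lower threshold and 7.20% the upper one. Of the primitive endoderm list 3 of 6 passed the lower threshold, of early mesoderm 3 of 4 and of trophoblast 3 of 4, and the summed RPKM of these lists went from 9.68 to 4.48, from 27.8 to 8.24 and from 60.9 to 27.1. Of 3 neural markers found, *Nes* was lower (0.684), *Pax6* was higher (1.83) and *Sox1* passed neither threshold (1.26). None of 8 fibroblast markers passed a threshold, but all had ratios above 1, from 1.04 to 5.43, with a median log2 ratio of 0.45. *Postn* had 6 and 33 reads and the ratio of 5.43 (interval 2.54 to 17.95), at an RPKM below 1 in both libraries. *Col1a1* had 976 and 1186 reads and a ratio of 1.36 (interval 1.25 to 1.48), *Lum* had 0 and 2 reads, *Dcn* 8 and 12, and *Fn1*, which other cells also express, an RPKM of 290 and 333. The summed RPKM of this list was 315 and 364. The part of these cell types in the results below was not tested.

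A Prep1 peak lay in the domain, and its sequence is shown because it places Prep1 ChIP signal inside *Meg3*, the gene of the domain with the most reads. The peak covered 110781125 to 110781455 (mm9, 331 bases), from 1914 to 2244 bases downstream of the annotated *Meg3* start. It was the only peak of the 3902 deposited that overlapped the domain. Its centre of 300 bases, chr12:110781140-110781439 on the plus strand, read as follows, with the letters that match TGATTGACAG on the minus strand in capitals. Over both strands this was the word of 10 letters held by the most peak windows of this length, and it has the form of the decamer known for Prep1-Pbx dimers.
Meg3 peak: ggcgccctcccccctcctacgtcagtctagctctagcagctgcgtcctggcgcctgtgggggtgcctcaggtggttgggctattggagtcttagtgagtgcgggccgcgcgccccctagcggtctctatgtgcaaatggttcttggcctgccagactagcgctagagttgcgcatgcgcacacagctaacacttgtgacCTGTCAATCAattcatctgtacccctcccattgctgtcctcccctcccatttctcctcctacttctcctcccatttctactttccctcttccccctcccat

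Of the 10 annotated *Meg3* transcripts 5 spanned the peak, and an exon of 1 transcript overlapped it, so the peak was intronic in all spanning transcripts but at most 1. The match lay at 110781339 to 110781348, with its first base 49 bases downstream of the peak centre. Windows of 300 bases around the centre held this word in 425 of all 3902 peaks (10.9%), that of *Meg3* among them, compared with 73 of 32851 RefSeq promoters (GRCm38.p6) of the same length (0.222%). The word was picked from these same peak windows, so its higher share in them is no test. Only exact matches were counted, so the share is not that of the decamer with variable letters. None of the 6 promoters listed for *Dlk1*, *Meg3* (2 entries), *Rian*, *Mirg* and *Dio3* held it, nor TGACAG, the last 6 letters of the same word, which was present in 19.2% of all promoters and 45.4% of the peak windows. The enrichment of the *Meg3* peak over input was 19-fold, below the median of 21-fold over all peaks, which ranged from 4 to 336. In all, 2073 peaks had a higher value. The nearest other peaks lay 660 kb from the domain on the *Dlk1* side and 430 kb from it on the *Dio3* side. Chromosome 12 held 1.20 peaks per Mb, and the domain, with its 1 peak, 1.21 per Mb.

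**Figure D1:**
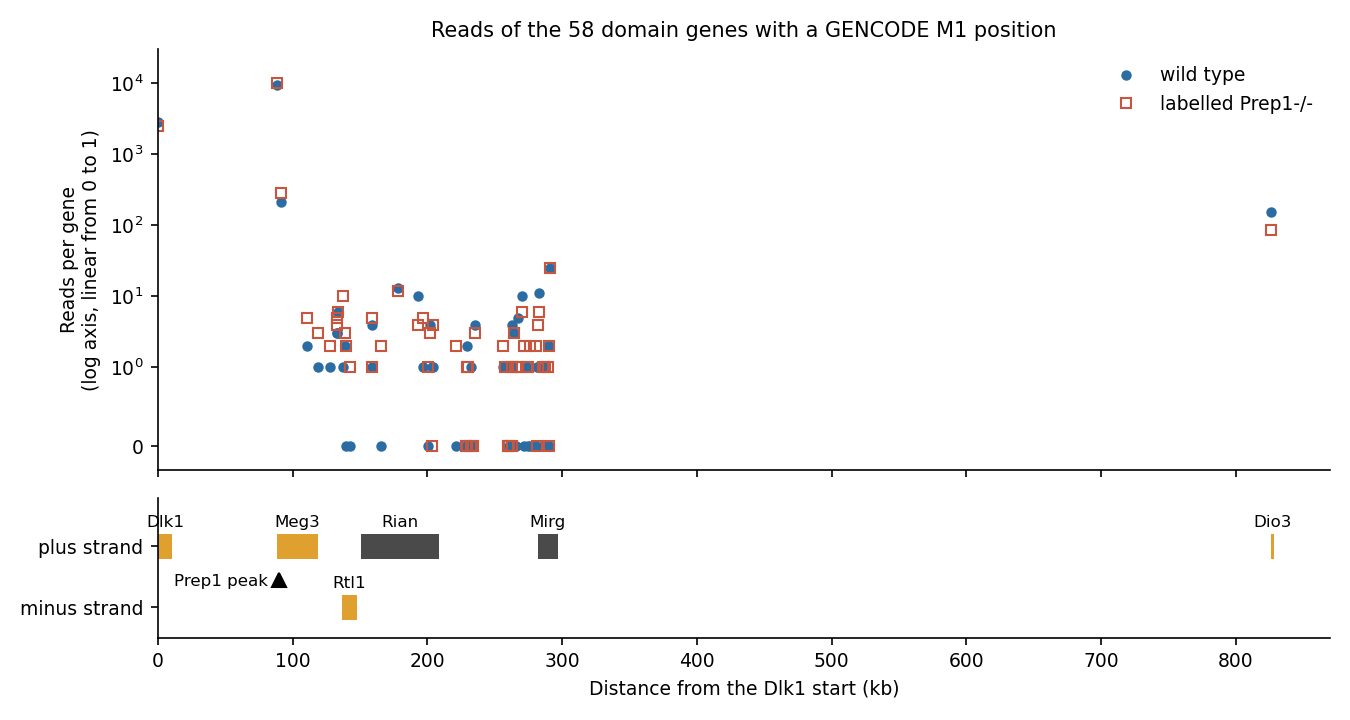
Reads per gene in the wild type library (filled circles) and the library labelled Prep1-/- (open squares) for the 58 domain genes with a GENCODE M1 position, on a log axis that is linear from 0 to 1, against the distance from the *Dlk1* start in kb. The lower panel shows the genes on each strand (*Rian* and *Mirg*, in dark grey, have no value in the tables) and the Prep1 peak as a triangle. *Meg3* and *Dlk1* stand above all others, most small RNA genes have fewer than 10 reads, and *Dio3* lies alone at the far end with 152 and 85 reads.

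*Meg3* is a long noncoding RNA that remains largely in the nucleus. It had 9387 reads from wild type cells against 10008 from the library labelled Prep1-/-, at an RPKM of 450 and 537. Among the genes with finite values it ranked 103rd and 76th by RPKM. This rank and the nearest genes named below rest on the length used for the RPKM. In wild type cells reads per kb of annotated exon were 519 for *Meg3* and 503 for *Dlk1*, which ranked 5180th by RPKM. The *Meg3* ratio between the libraries was 1.19 (interval 1.16 to 1.23), a small difference that stayed within the thresholds. Under the other scalings of the libraries the ratio lay between 1.23 and 1.27. Each of these scalings raises the ratios of all genes alike, so they are no test of the direction. The genes outside the domain whose RPKM pair was nearest to that of *Meg3* were AC154306.3 (435 and 553), *Ssr2* (470 and 573) and *Ncl*, encoding nucleolin (424 and 503), at Euclidean distances of 0.068 to 0.126 on the log2 scale over the 2 libraries.

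*Dlk1* encodes a transmembrane protein related to the Delta ligands of Notch, known for holding back adipocyte differentiation. It had 2847 reads from wild type cells against 2476 from the library labelled Prep1-/-, at an RPKM of 18.8 and 18.3. The ratio was 0.972, and its interval of 0.921 to 1.03 included 1. The side of 1 depended on the scaling: under the 4 other scalings tried, the ratio lay between 1.00 and 1.04, the highest with the median of the chromosome 12 genes outside the domain set to 1. *Dlk1* stayed within the thresholds under each.

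The level of *Meg3* relative to *Dlk1* depended on the gene length used. By RPKM, *Meg3* stood at 23.9 times *Dlk1* in the wild type library and 29.3 times in the library labelled Prep1-/-. By reads per kb of all annotated exon bases (18089 for *Meg3*, 5657 for *Dlk1*), it stood at 1.03 and 1.26 times. The reads behind each RPKM unit imply a length for *Dlk1* that was 7.26 times that for *Meg3*, whereas the annotated exon bases of *Dlk1* were 0.313 times those of *Meg3*. In the annotation, the 10 transcripts of *Meg3* ran from 421 to 14548 bases and the 10 of *Dlk1* from 483 to 4653. No order between the levels of these genes was therefore taken from the tables, and the ratio between the libraries, which uses the same length on both sides, does not depend on this choice.

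*Dio3* encodes the type 3 deiodinase, which inactivates thyroid hormone. It had 152 reads from wild type cells against 85 from the library labelled Prep1-/-, at an RPKM of 3.37 and 2.12. The ratio was 0.628 (interval 0.474 to 0.821), and *Dio3* was the only one of the 5 genes found to pass the lower threshold, which was passed by 13.8% of all genes whose wild type RPKM exceeded 1. The interval included 0.7, so the reads do not place *Dio3* on either side of that threshold. Under the 4 other scalings the ratio lay between 0.647 and 0.672. In these bulk libraries fewer cells with *Dio3* RNA and less RNA per cell cannot be told apart. By summed RPKM the primitive endoderm, mesoderm and trophoblast lists given above moved in the same direction, whereas the fibroblast list did not. The neural sum also fell, from 24.4 to 18.5, with *Nes* at a ratio of 0.684. *Pax6* (1.83) and *Sox1* (1.26) had ratios above 1, and the neural median log2 ratio was 0.31. *Elf5* of the trophoblast list had 3 and 7 reads. Any link of these lists to *Dio3* was not tested. *Dio3* lies 529.613 kb beyond the end of *Mirg*, and no small RNA gene of the tables lies between them.

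Among other thyroid hormone genes, the receptor gene *Thra* had 417 and 391 reads and a ratio of 1.05, within the thresholds. The activating deiodinases had few reads, with 6 and 0 for *Dio1* and none in either library for *Dio2*.

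**Figure D2:**
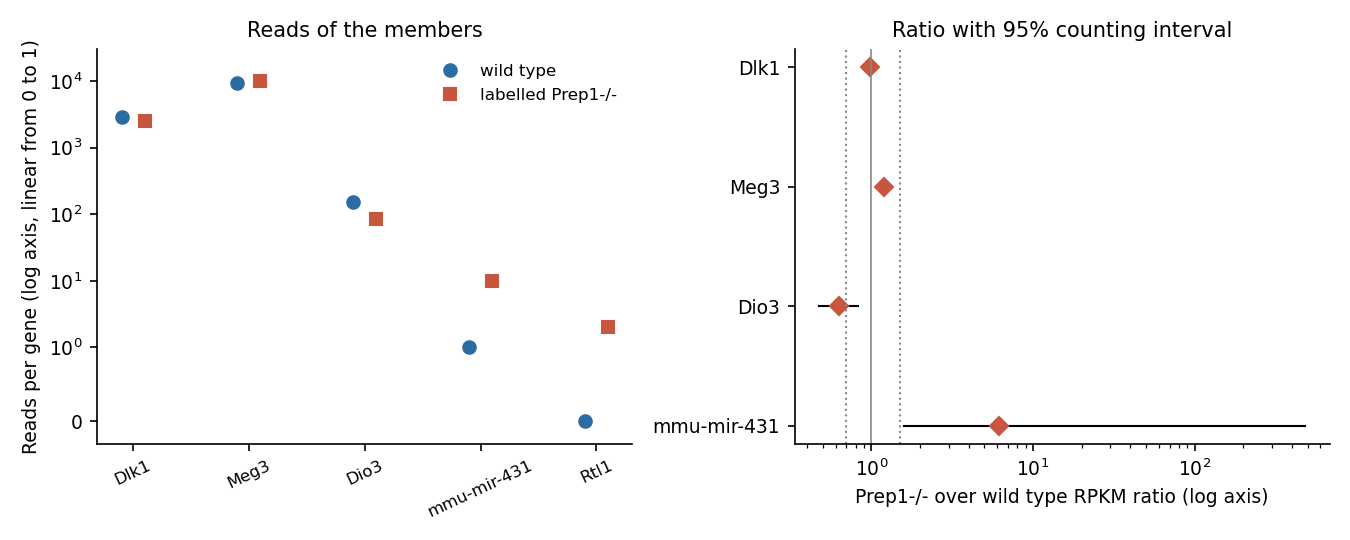
Left, reads per gene in the wild type library (circles) and the library labelled Prep1-/- (squares), on a log axis that is linear from 0 to 1. Right, the Prep1-/- over wild type RPKM ratio (diamonds) on a log axis with its 95% counting interval (bars), with dotted lines at 0.7 and 1.5: *Dlk1* and *Meg3* lie between the lines with narrow intervals, *Dio3* at 0.628, and mmu-mir-431 at 6.15 with an interval that reaches 485.

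*Rtl1* derives from the gag and pol genes of a retrotransposon and is needed for the fetal capillaries of the placenta. No wild type read was assigned to it, a count of 0 that allows up to 3 at this depth, and 2 reads came from the library labelled Prep1-/-, too few for a ratio. Its RPKM of 0.00646 and 0.0217 reflects the way the RPKM was formed, which gives a gene without reads a value above 0. GENCODE M1 places *Rtl1* on the minus strand at 110827404 to 110838540, under another identifier than that of the tables. Among 7 listed relatives that derive from the same kind of element, 5 were found. *Ldoc1* passed the upper threshold with a ratio of 3.18 (56 and 161 reads, interval 2.36 to 4.44). *Ldoc1l* had 1.07 (296 and 283 reads), *Rgag4* had 1.59 (32 and 46 reads) with an RPKM below 1 in both libraries, and *Zcchc5* and *Zcchc16* had at most 4 reads in either library.

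The microRNA genes mmu-mir-431, mmu-mir-433, mmu-mir-127 and mmu-mir-136 lie on the plus strand within the span of *Rtl1* on the minus strand, and mature microRNAs from this stretch are known to cut the *Rtl1* transcript. Their mature sequences are shown because mmu-mir-431 passed the upper threshold and the other three are its neighbours on the same strand. They are given from RefSeq (GRCm38.p6), 5′ to 3′, with the seed (bases 2 to 8) in capitals.
mmu-miR-431-5p: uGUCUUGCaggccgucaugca
mmu-miR-431-3p: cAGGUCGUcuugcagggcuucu
mmu-miR-433-5p: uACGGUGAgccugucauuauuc
mmu-miR-433-3p: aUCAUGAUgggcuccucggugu
mmu-miR-127-5p: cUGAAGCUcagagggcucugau
mmu-miR-127-3p: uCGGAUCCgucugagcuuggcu
mmu-miR-136-5p: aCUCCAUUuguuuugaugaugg
mmu-miR-136-3p: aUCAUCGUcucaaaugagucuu

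These 8 mature sequences have 8 different seeds. The positions of mmu-miR-431-5p were 109590459 to 109590479 on the plus strand of chromosome 12 in GRCm38.p6. In the mm9 coordinates of GENCODE M1 the gene mmu-mir-431 covered 110828657 to 110828747. Over the 43 of 44 microRNA genes of the domain with a RefSeq entry, 81 mature sequences carried 78 different seeds. A seed was shared in 3 cases: GGUAGAC by mmu-miR-379-5p and mmu-miR-1193-5p, AUGUAAC by mmu-miR-379-3p and mmu-miR-411-3p, and GGUUGUC by mmu-miR-410-5p and mmu-miR-494-5p.

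mmu-mir-431 had 1 read from wild type cells against 10 from the library labelled Prep1-/-, at an RPKM of 1.5 and 9.25. The ratio of the RPKM values, which carry an added read, was 6.15, while the ratio of the reads themselves was 11.2 with an interval of 1.59 to 485, and with 1 added to both RPKM values the ratio was 4.09. It was the only one of the 5 genes found to pass the upper threshold, which was passed by 7.20% of all genes whose Prep1-/- RPKM exceeded 1. Its neighbours had fewer reads: mmu-mir-433 had 2 and 3, mmu-mir-127 had 0 and 2, and mmu-mir-136 had 0 and 1. Together the 4 genes had 3 wild type reads and 16 from the library labelled Prep1-/-, which gives 5.96 as the ratio of the reads (interval 1.71 to 31.9), and of the 16 mmu-mir-431 gave 10. The libraries were made from polyadenylated RNA and not from size-selected small RNA, so these are reads on the annotated hairpins and not levels of the mature microRNAs. The tables do not state how strand was used in counting, and reads of *Rtl1* and of genes opposite to it cannot be told apart where strand is not used.

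Reads on the other small RNA genes of the domain were few. The 59 genes had 353 reads from wild type cells against 442 from the library labelled Prep1-/-, with a median of 3 reads per gene over both libraries. In all, 9 small RNA genes had 10 or more reads, besides *Dlk1*, *Meg3* and *Dio3*, and 5 had none. mmu-mir-1906 alone had 212 and 280 reads, a read ratio between 1.23 and 1.77 by its interval. It lies at 110782751 to 110782830 overlapping an exon of *Meg3*, and its RPKM is listed as infinite, so it entered no RPKM ratio.

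Among the remaining small RNA genes, mmu-mir-410 within *Mirg* had the most reads, with 25 in each library and a ratio of 1.12 (interval 0.616 to 2.03). mmu-mir-453, also within *Mirg*, had 11 and 6, and mmu-mir-654, between *Rian* and *Mirg*, had 10 and 6. mmu-mir-668 had 3 and 8 reads and mmu-mir-665 had 6 in each library. These genes encode microRNAs of the cluster that runs from *Rian* to *Mirg*, apart from mmu-mir-665, which lies between *Meg3* and *Rtl1*. The SNORD113 genes encode C/D box small nucleolar RNAs. Of the 14, 7 lie within the annotated span of *Rian*, 2 of them overlapping an exon, and 7 between *Rian* and *Mirg*. Those with the most reads, both within *Rian*, had 13 and 12, and 10 and 4, the latter overlapping an exon. For these genes every interval included 1.

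Summed along the domain, the reads on small RNA genes within the annotated span of *Rian* numbered 35 and 37, with a ratio of 1.18 (0.724 to 1.93). Within *Mirg* they numbered 44 and 38, with a ratio of 0.966 (0.609 to 1.53), and between *Rian* and *Mirg* 43 and 46, with a ratio of 1.20 (0.772 to 1.86). These sums stand for reads inside the spans and are not levels of *Rian* or *Mirg*. The 14 SNORD113 genes had 37 and 36 reads, a ratio of 1.09 (interval 0.668 to 1.77). Over all 59 genes the ratio was 1.40 (interval 1.21 to 1.61). Without mmu-mir-1906 it was 1.28 (1.02 to 1.62), and without mmu-mir-431 as well it was 1.21, with an interval (0.959 to 1.54) that included 1.

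**Figure D3:**
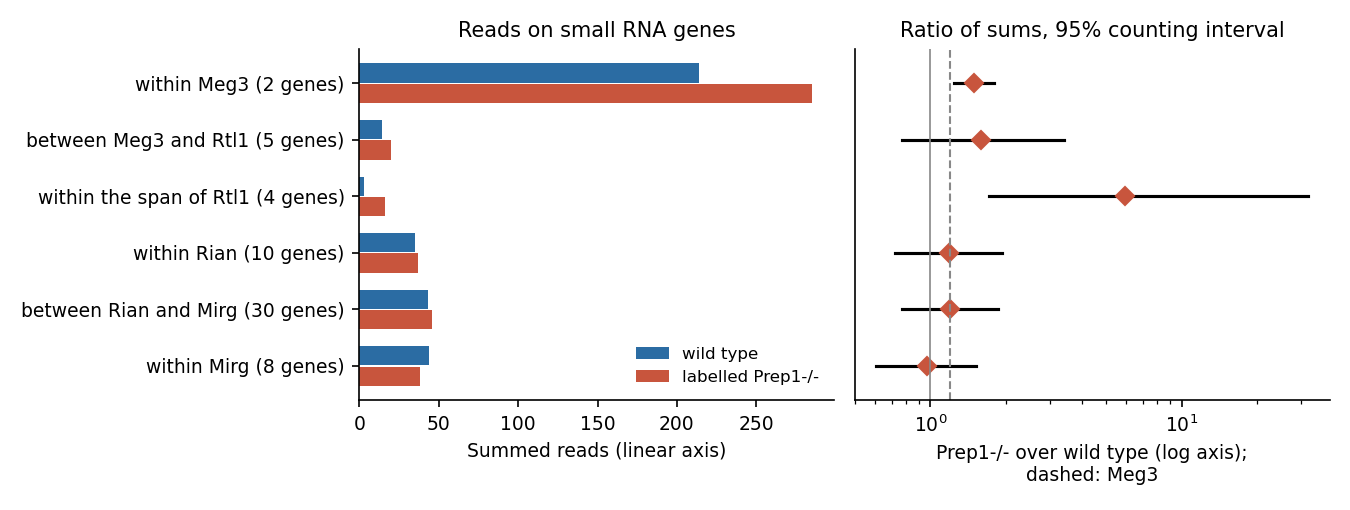
Left, reads summed over the small RNA genes of each stretch of the domain in the wild type library and the library labelled Prep1-/- (bars, linear axis from 0). Right, the ratio of the sums, scaled as the RPKM, with its 95% counting interval on a log axis, a solid line at 1 and a dashed line at the *Meg3* ratio of 1.19: the intervals of the 4 genes in the *Rtl1* span and of the 2 within *Meg3* lie above the dashed line, and those within *Rian*, within *Mirg* and between them include 1.

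By the thresholds, 11 small RNA genes of the domain were lower and 24 higher, all with fewer than 20 reads over both libraries. Of the 24, 12 had no wild type read. The RPKM values were formed from the count plus 1 read, so that a gene with 0 wild type reads and 1 read in the library labelled Prep1-/-, such as mmu-mir-136, took a ratio of 2.24. Among the small RNA genes with an RPKM above 1, 45.3% were higher in the domain against 24.3% of the microRNA and small nucleolar RNA genes elsewhere, and 22.0% were lower against 27.6%. The median number of reads over both libraries was 3 per gene in the domain and 5 elsewhere, so the shares come from unlike depths. No trait of the domain was taken from them. With a minimum of 20 reads over both libraries no small RNA gene of the domain was counted in either direction, and *Dio3* remained as the only domain gene counted.

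The median log2 ratio (0.1 added to both RPKM values) over the 11 domain genes with 10 or more reads and a finite RPKM was 0.05, with a range from -0.97 for a SNORD113 gene to 2.54 for mmu-mir-431. Over all 13218 expressed genes, those with an RPKM above 1 in both libraries, it was -0.07, over 429 expressed genes of chromosome 12 outside the domain -0.09, and over 36 expressed genes within 2 Mb of the domain -0.07. The domain median lay within the interquartile range of the expressed genes, which ran from -0.28 to 0.14. On the *Dlk1* side, *Begain* had a ratio of 0.812, *Wdr25* 1.23, *Wars*, a tryptophanyl-tRNA synthetase, 0.987, and *AI132487* (*Slc25a47*) 0.420 (132 and 49 reads). On the *Dio3* side, *Ppp2r5c* had 0.975, *Dync1h1*, the dynein heavy chain, 0.992, *Hsp90aa1* 1.06 and *Wdr20a* 0.975. Of these 8 genes only *AI132487* passed a threshold.

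**Figure D4:**
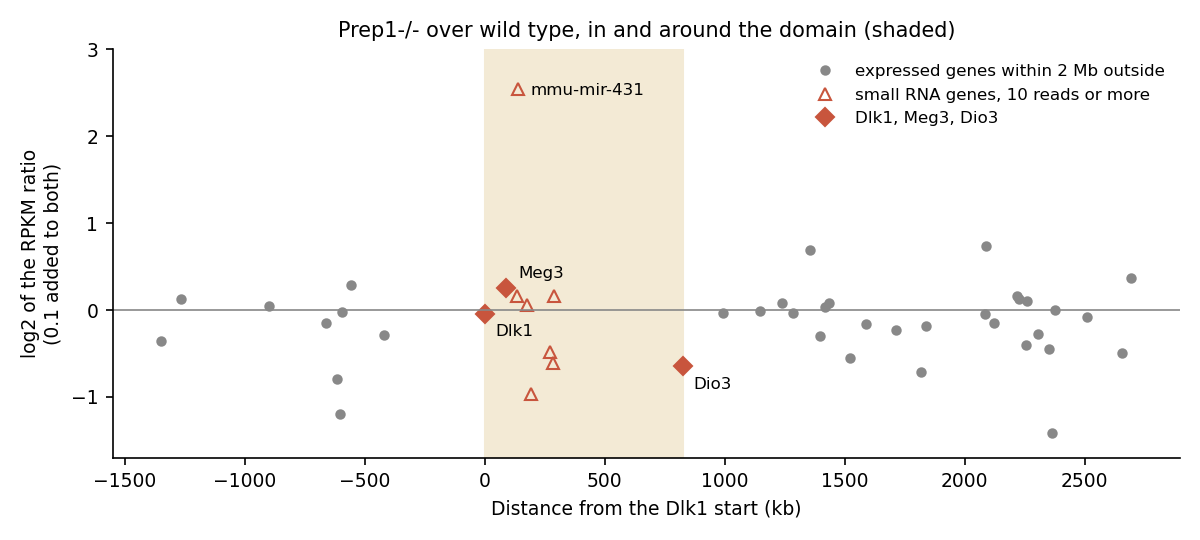
The log2 ratio of the Prep1-/- to the wild type RPKM (0.1 added to both) against the distance from the *Dlk1* start in kb, for *Dlk1*, *Meg3* and *Dio3* (diamonds), small RNA genes with 10 or more reads and an M1 position (open triangles) and 36 expressed genes within 2 Mb outside the domain (circles), with the domain shaded. *Dlk1* and *Meg3* lie among the outside genes, *Dio3* at -0.65, and mmu-mir-431 at 2.54 above all others.

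Genes linked to methylation imprints or silencing at the domain, *Tet1* and *Tet2* among them, were expressed in both libraries. Of the 16 listed none was lower (13.8% of all genes were) and 1 was higher (7.20% of all genes were). The median log2 ratio was 0.18, with ratios from 0.921 to 1.58. *Zfp57*, a zinc finger protein that guards methylated imprints, had an RPKM of 157 and 172, a ratio of 1.10. Its partner *Trim28* had 883 and 1032, a ratio of 1.17, and the maintenance methyltransferase *Dnmt1* had 93.2 and 109, a ratio of 1.17. *Tet1*, an enzyme that oxidises methylcytosine, passed the upper threshold with 61.3 and 96.8, a ratio of 1.58. *Aff3*, known for binding the control region between *Dlk1* and *Meg3*, had a ratio of 1.07, and the Polycomb genes *Ezh2*, *Suz12*, *Eed* and *Jarid2* had 1.39, 1.36, 0.972 and 1.41. *Dnmt3l* had 0.959 and *Dppa3*, which is known to protect the Dlk1-Dio3 imprint, 0.921 (316 and 260 reads).

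Imprinted genes elsewhere in the genome were listed for comparison. Of 10, 5 passed the lower threshold (13.8% of all genes did) and none the upper one (7.20%), with a median log2 ratio of -0.44. The lowest ratio was that of *H19*, a noncoding RNA, at 0.140 (interval 0.130 to 0.150). The ratio of *Igf2*, a fetal growth factor gene, was 0.362 (45829 and 14822 reads). The cell cycle inhibitor gene *Cdkn1c* had 0.489, *Plagl1* 0.568 and *Grb10* 0.667. *Peg3* (0.858), *Mest* (0.818), *Snrpn* (1.04) and *Nnat* (1.14) did not pass. Several of these genes are also expressed in differentiating cells, whose markers are given above, and that part was not tested.

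**Figure D5:**
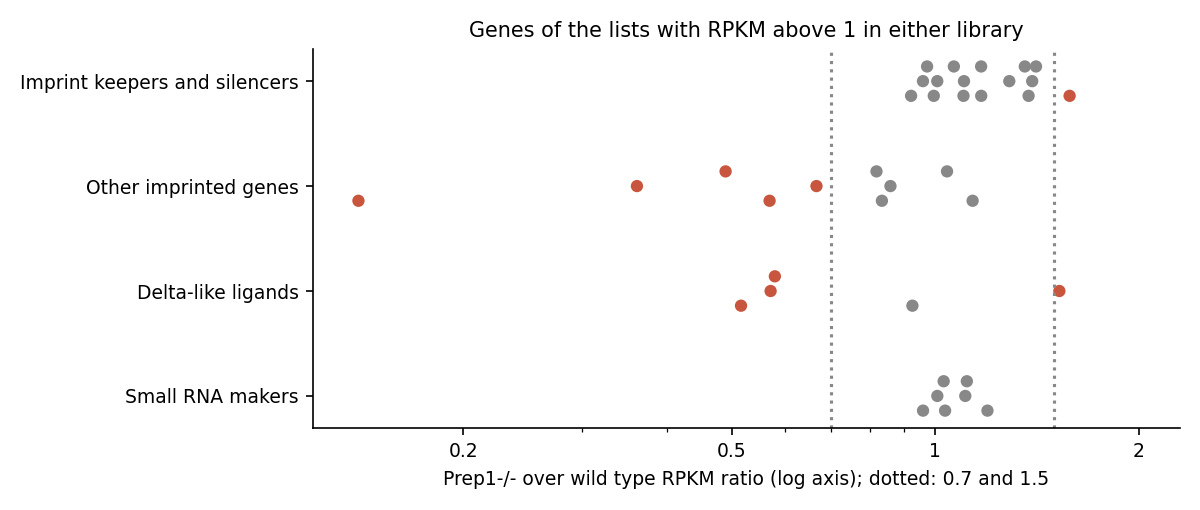
Each point is a gene with an RPKM above 1 in either library, placed by its Prep1-/- over wild type RPKM ratio on a log axis, in 4 gene lists, and dotted lines mark 0.7 and 1.5. Red points passed a threshold: 5 of the 10 other imprinted genes and 3 of the 5 Delta-like ligands drawn lie below 0.7, against 13.8% of all genes. *Dll1* of the ligands (1.53) and *Tet1* of the imprint keepers and silencers (1.58) lie above 1.5, against 7.20% of all genes. All 7 small RNA makers found lie between the lines.

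*Dlk1* shares the extracellular EGF-like repeats of the Delta and Jagged ligands. Of 6 such genes, 3 were lower, against 13.8% of all genes: *Dlk2*, its closest relative, with a ratio of 0.579 (256 and 132 reads), *Dll3* with 0.570 (895 and 456 reads) and *Jag2* with 0.516 (1389 and 640 reads). *Jag2* is also on chromosome 12. *Dll1* passed the upper threshold with 1.53 (84 and 115 reads, interval 1.15 to 2.05). *Jag1* had 0.925 and *Dll4* had 7 and 5 reads. *Dlk1*, at 0.972, thus differed in ratio from *Dlk2*, *Dll3* and *Jag2* by more than the counting intervals, and the difference between them was not tested over replicates.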

How the data were processed

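RNA of wild type and Prep1-/- ES cells, 1 library each, was sequenced as polyadenylated RNA, paired-end at 50 bp, and the authors assigned the reads to Ensembl 63 transcripts with RSEM and then used DESeq. Versions were not given in the sources used here. The deposited tables give a read count (whole numbers) and an RPKM per gene. From the values, the RPKM rises with the count plus 1, and 85 genes per library are listed as infinite. The ChIP-seq reads (single-end, 36 bp) were mapped by the authors with BWA to mm9 and peaks called with MACS against input, and the score column of the deposited list holds the rounded fold enrichment.

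The deposited RPKM values were divided (library labelled Prep1-/- over wild type). Medians over lists used log2 values after adding 0.1 to the deposited RPKM. With 1 library per genotype there was no test, p-value or SD. Exact intervals were computed from the counts, scaled by the same factor as the RPKM (1.12), with scipy 1.17.1. Read totals were 29596294 and 25717811. TMM factors (edgeR 4.0.16, R 4.3.3) were used for scaling only. Positions come from GENCODE M1 (mm9), and sequences from NCBIM37 and RefSeq (GRCm38.p6). The calls and intervals were tried on simulated counts with counting error only, for genes with more reads than most genes of the domain. They were thus not tested for genes with few reads, nor for variation between cultures. Genes described are the 7 chosen, other domain genes with at least 10 reads over both libraries, the 4 nearest expressed genes on each side, the 3 nearest to Meg3 by level and fixed lists. Genes below these limits are named only as a few examples, chosen after their values were seen. The genes and lists were chosen with earlier results of these data known. Other scalings, thresholds, filters and pseudocounts were tried. A listed gene is not reported here.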

Additional observations from a re-analysis of the deposited data

How the results depend on the processing

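No paired analysis was possible because each genotype is 1 library, and for the same reason no replicate could be left out. Of 79 alternative values for 10 results, 66 stayed within the counting interval of a ratio, within 1.5 times a count or within the spread of the domain genes, and 13 did not. None reversed a called ratio. Some of the 66 still differ: the mmu-mir-431 ratio of 6.15 was 11.2 from the reads themselves and 4.09 with 1 added to both RPKM values, which also left 8 domain genes lower in place of 12. The Meg3 ratio of 1.19 was 1.23 with the libraries scaled by their summed read counts, 1.25 with the median of the expressed genes set to 1, 1.25 with TMM and 1.27 with the chromosome 12 median set to 1, and the Dlk1 ratio was 1.04 under the last of these. These scalings shift every ratio alike, by 0.04 to 0.10 on the log2 scale. With thresholds of 0.5 and 2, 0 of the chosen genes and 3 domain genes were lower, in place of 1 and 12. With 1 added to both RPKM values, 0 of the chosen genes were lower, since Dio3 then missed 0.7. Without the RPKM filter 2 of the chosen genes were higher in place of 1, the added one being Rtl1 with 0 and 2 reads. With at least 20 reads over both libraries, 0 of the chosen genes were higher, and 1 domain gene was lower and 0 were higher, in place of 12 and 24. Only peaks at or above the median enrichment left 0 peaks in the domain in place of 1. The domain median log2 ratio, 0.05, changed sign in 1 setting and ran from -0.04 (3 genes, without spans under 200 bp) to 0.16 (57 genes with at least 1 read). Depth limits the small RNA genes, most of which had fewer than 10 reads.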

Other observations

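Genes that make or process small RNAs showed similar levels in both libraries. Of 8 listed, 7 were found and none passed a threshold, with ratios from 0.959 to 1.19. Of all genes 13.8% passed the lower threshold and 7.20% the upper one, so few calls would be awaited in a list of this size. Drosha and Dgcr8, which cut microRNA hairpins from longer transcripts in the nucleus, had ratios of 1.11 (11208 and 11159 reads) and 1.11 (4246 and 4205 reads), and Dicer1, which cuts the hairpins to mature length, had 1.01. Nop56 and Nop58, proteins of C/D box small nucleolar RNA particles, had 1.03 and 1.19.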
